A study of Mus musculus with 23 samples.

Results

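The interferon-stimulated genes described here are 39 mouse genes chosen by name, and all 39 were found by symbol among the 18341 named rows of the 18682 rows in the table and passed the filter on low counts. They were followed in the endometrium of 23 uterine horns of female C57BL/6 mice by bulk RNA sequencing of poly(A) RNA. The HG+ORG group (6 horns) received human endometrial organoids in a hydrogel, the HG group (6 horns) the hydrogel alone and the PBS group (5 horns) buffered saline, each 4 days after the horns had been damaged with 70° ethanol, and tissue was taken 2 weeks after the injection. The labels do not say what the SHAM group (6 horns) received. More horns were sequenced than mice were taken at this time and the labels do not tie horns to mice. Some horns therefore share a mouse, and the p-values below treat each horn as a replicate. They may be too small if such horns lie in the same group, and too large if they lie in different groups.

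Type I interferons bind the receptor pair IFNAR1 and IFNAR2, and the kinases JAK1 and TYK2 then start a signal in which a complex that holds STAT2 and IRF9 enters the nucleus and binds interferon-stimulated response elements (ISREs) in the promoters of these genes. Interferon gamma has its own receptor and acts through gamma-activated sites (GAS elements). The products block viral replication, sense nucleic acids or restrain the signal itself. Reproductive tract epithelium is known for interferon epsilon, which it makes without infection and under hormonal control. In bulk tissue, fewer cells of a type and less RNA per cell cannot be told apart.

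Epithelial markers were expressed in every horn, the 12 members of the list having mean levels of 6.27 to 10.26 log2 CPM in the 23 horns. CPM, the counts of a gene scaled to a common library total, was taken after scaling of the libraries by trimmed mean of M-values (TMM) factors. The libraries held 7920918 to 14902952 counts (median 12701407). HG+ORG replicate 18 stood apart in composition: its TMM factor of 0.7021 was the lowest, next to 0.7563 in SHAM replicate 3 and up to 1.131 in other libraries, its epithelial list was the lowest of all, and the macrophage gene Lyz2 reached 15210 CPM, against at most 847.8 CPM elsewhere. Other horns also differed in composition. The mean level of 8 adipocyte markers ran between -1.46 log2 CPM in PBS replicate 8 and 9.40 in HG replicate 12. That of 11 smooth muscle markers ran between -0.025 in PBS replicate 8 and 7.49 in HG replicate 16. SHAM replicates 5 and 6 had more similar counts than any other pair within a group (chi-square per degree of freedom 2.76, median over such pairs 114). They still differed by more than sampling noise and were kept as separate horns. The next pairs were SHAM replicates 1 and 2 (16.5), HG replicates 13 and 16 (20) and PBS replicates 9 and 11 (25.5). The labels do not say whether any of these pairs share a mouse.

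The 250 bases before the start of transcription were at hand for 29 of the 39 genes (RefSeq, build GRCm38.p6; the counts were made on another build). An ISRE core, GAAANNGAAA on either strand, was present for 11 of the 29 genes (37.9%). Over all genes with a window, these 29 included, it was present for 936 of 27025 (3.46%). A gene was counted if any window of it held a match. A GAS core, TTCNNNGAA, which reads the same on both strands, was present for 6 of 29 genes (20.7%), against 2197 of 27025 (8.13%). A match describes letters in the window, not binding. The 10 genes without a window were Usp18, Oas2, Dhx58, Zbp1, Mx1, Mx2, Parp9, Parp14, Rtp4 and Ifi27. The stretches around the matches in 11 genes that the values below turn on are shown 5′ to 3′ on the strand of the gene, with the ISRE or GAS letters in capitals. They show that genes that varied together from horn to horn, such as Isg15, Ifit1 and Gbp2, carry the ISRE at different distances and in different copy number, and that Samhd1 and Irf1, both with GAS letters, had no ISRE letters in this window.
Isg15 ISRE: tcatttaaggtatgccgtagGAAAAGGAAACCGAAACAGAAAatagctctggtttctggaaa
Ifit1 ISRE: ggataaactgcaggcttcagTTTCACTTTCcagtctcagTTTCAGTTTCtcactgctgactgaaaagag
Ifit3 ISRE: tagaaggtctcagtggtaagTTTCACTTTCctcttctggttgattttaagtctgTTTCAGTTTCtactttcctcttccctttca
Stat2 ISRE: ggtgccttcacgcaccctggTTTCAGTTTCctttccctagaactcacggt
Oas1a ISRE: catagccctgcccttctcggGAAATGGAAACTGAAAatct
Gbp2 ISRE: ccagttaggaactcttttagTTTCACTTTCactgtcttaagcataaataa
Gbp3 ISRE: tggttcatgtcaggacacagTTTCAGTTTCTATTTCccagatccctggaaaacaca
Trim30a ISRE: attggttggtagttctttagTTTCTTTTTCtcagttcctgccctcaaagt
Bst2 ISRE: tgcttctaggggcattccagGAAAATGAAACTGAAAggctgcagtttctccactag
Irf1 GAS: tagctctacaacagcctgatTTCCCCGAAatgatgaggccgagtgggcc
Samhd1 GAS: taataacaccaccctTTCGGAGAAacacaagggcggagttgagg

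The stretch of Isg15 lies at chr4:156200855-156200916 (minus strand, 98 to 37 bases before the start), and that of Ifit1 lies at chr19:34640765-34640833 (plus strand, 124 to 56 bases before the start). That of Ifit3 lies at chr19:34583353-34583436 (plus strand, 176 to 93 bases before the start), and that of Stat2 lies at chr10:128270256-128270305 (plus strand, 242 to 193 bases before the start). That of Oas1a lies at chr5:120907526-120907565 (minus strand, 40 to 1 bases before the start), and that of Gbp2 lies at chr3:142620584-142620633 (plus strand, 79 to 30 bases before the start). That of Gbp3 lies at chr3:142559979-142560034 (plus strand, 65 to 10 bases before the start), and that of Trim30a lies at chr7:104465200-104465249 (minus strand, 56 to 7 bases before the start). That of Bst2 lies at chr8:71537567-71537622 (minus strand, 150 to 95 bases before the start), and that of Irf1 lies at chr11:53769904-53769952 (plus strand, 110 to 62 bases before the start). That of Samhd1 lies at chr2:157135303-157135346 (minus strand, 250 to 207 bases before the start). The Isg15 stretch held 3 overlapping ISRE matches, those of Ifit1, Ifit3, Oas1a, Gbp3 and Bst2 held 2 each, and those of Stat2, Gbp2 and Trim30a held 1. The GAS letters that Bst2 also carried overlap its ISRE, and those of Oas1a lie 98 to 90 bases before the start. Oas3 and Rsad2 held an ISRE match and Ifit2 and Eif2ak2 a GAS match, and their stretches are not shown.

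The 39 genes varied together from horn to horn, and with TMM factors every group held horns with most of the genes above their means and horns with most of them below. In HG+ORG replicate 19 and in PBS replicate 11, each of the 39 genes was above its own mean over the 23 horns. In HG+ORG replicate 21 and HG replicate 15, 37 were above it, and in SHAM replicate 3, 38 were. At the other end, 8 genes were above their means in HG+ORG replicate 18, 2 in HG+ORG replicate 22, 1 in HG replicate 17, 6 in HG replicate 14 and 2 in PBS replicate 10. These counts were made on log2 CPM with a prior count of 2, and the share of all 17708 tested features above their means in the same libraries lay between 47.4 and 53.7%.

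**Figure D1:**
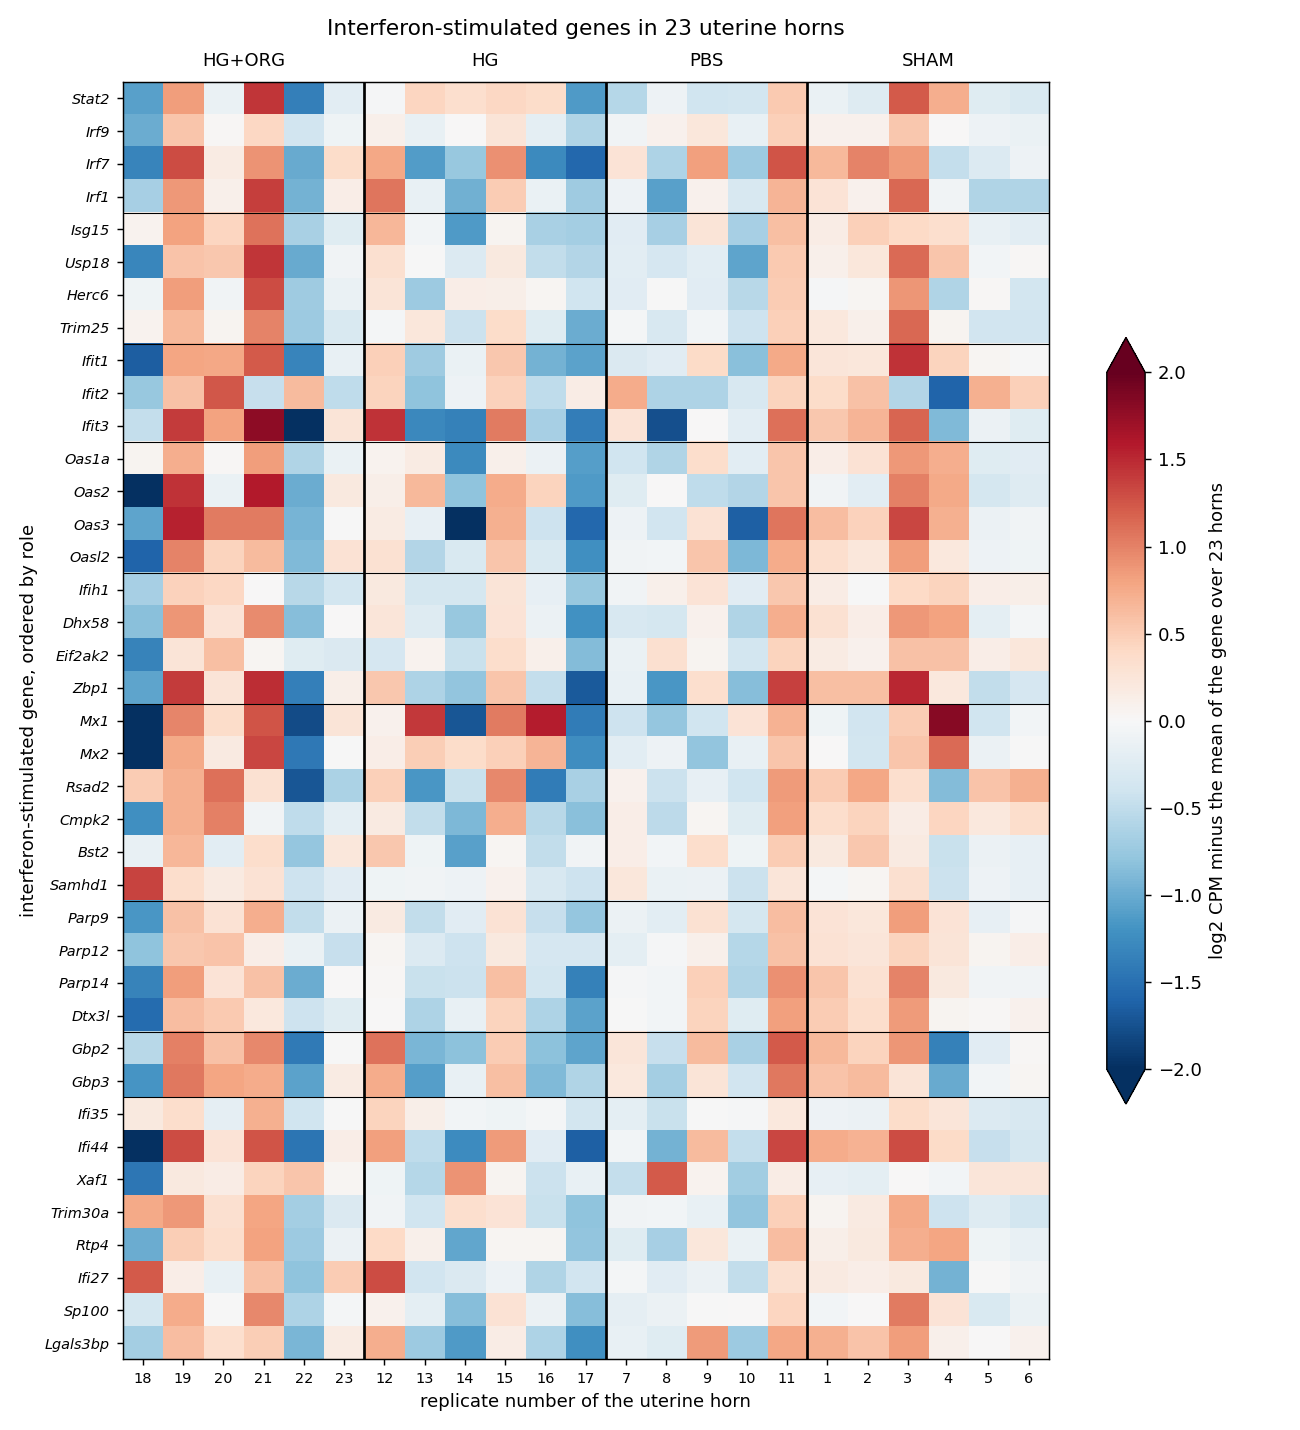
Each row is 1 of the 39 genes, grouped by role, and each column 1 horn, with color giving log2 CPM minus the mean of that gene over 23 horns. Whole columns are red (HG+ORG replicates 19 and 21, PBS replicate 11, SHAM replicate 3) or blue (HG+ORG replicate 22, HG replicate 17), and each of the 4 groups holds columns of both kinds or of intermediate color.

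The size of these shifts was similar at both ends. The median deviation of the 39 genes from their means was 0.81 log2 units in HG+ORG replicate 21, 0.74 in HG+ORG replicate 19, 0.60 in PBS replicate 11 and 0.84 in SHAM replicate 3. It was -0.99 in HG+ORG replicate 18, -0.80 in HG+ORG replicate 22 and -0.85 in HG replicate 17. So HG+ORG contained 2 of the highest and 2 of the lowest horns of the study. HG+ORG replicate 19 was among the top 3 of 23 horns for 27 of the 39 genes (69.2%), against 9.2% of all features. HG+ORG replicate 21 was there for 19 (48.7%), against 23.2% of features, PBS replicate 11 for 15 (38.5%), against 5.83%, and SHAM replicate 3 for 24 (61.5%), against 23.5%. Among the lowest 3 horns, HG+ORG replicate 22 stood for 27 genes (69.2%, against 12% of features), HG+ORG replicate 18 for 22 (56.4%, against 33.5%) and HG replicate 17 for 27 (69.2%, against 16%). These genes share libraries and scaling, so the counts describe the horns and are no test.

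Scaling moved the order of some horns and the place of SHAM. On total counts alone, with no TMM factor, all 6 SHAM horns had a median deviation above 0 (0.03 to 0.44) and 23 to 34 of the 39 genes above their means, while HG+ORG, HG and PBS still held horns on both sides. On that scale the median deviation of HG+ORG replicate 21 was 0.48 (31 genes above their means), that of HG+ORG replicate 18 was -1.50 (3 genes) and that of SHAM replicate 3 was 0.44 (29 genes). HG+ORG replicate 19 and PBS replicate 11 kept all 39 genes above their means, at 0.66 and 0.58, and HG replicate 15 then had 39, at 0.50. HG+ORG replicate 22 was at -0.63 and HG replicate 17 at -0.74. On that scale the median of all features was itself at -0.52 in HG+ORG replicate 18, -0.28 in HG+ORG replicate 21 and -0.44 in SHAM replicate 3.

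**Figure D2:**
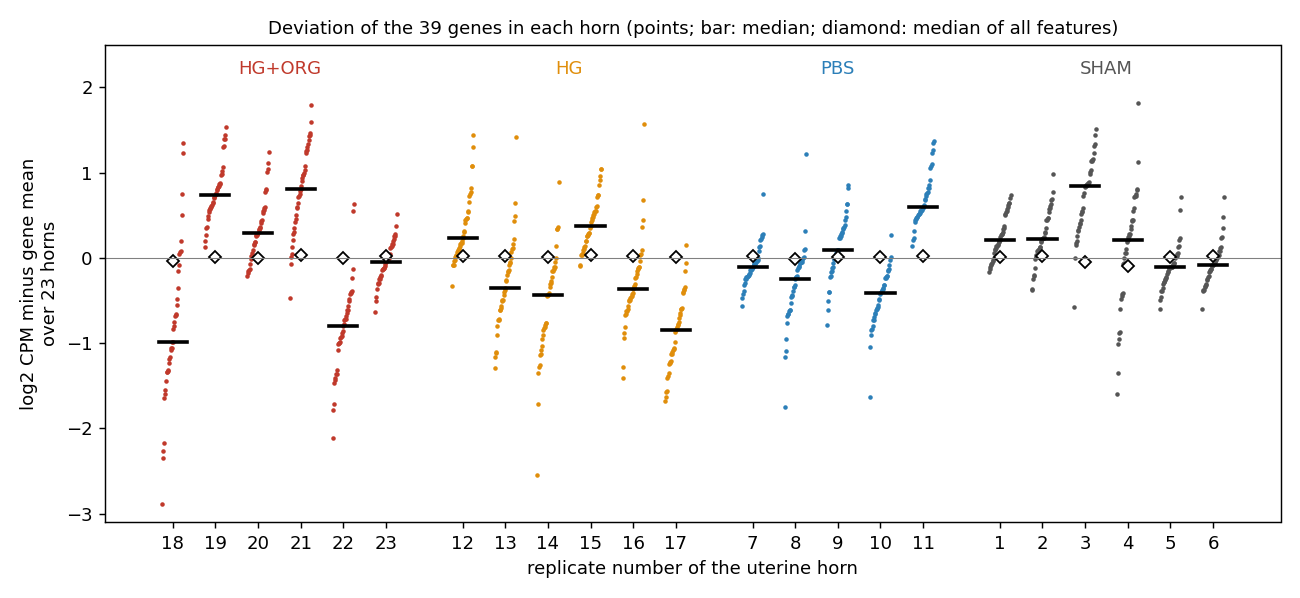
Points are the 39 genes in each horn, as log2 CPM minus the mean of the gene over 23 horns, bars are their medians and diamonds the median of all features. Medians run between -0.99 and 0.81 in HG+ORG, -0.85 and 0.37 in HG, -0.41 and 0.60 in PBS, and -0.11 and 0.84 in SHAM.

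HG+ORG horns differed most among themselves. The median over the 39 genes of the SD of log2 CPM was 0.80 in HG+ORG, 0.64 in HG, 0.51 in PBS and 0.45 in SHAM. The same median over all features was 0.65 in HG+ORG, 0.48 in HG, 0.39 in PBS and 0.47 in SHAM, and no test of the difference in spread was made. HG+ORG had the widest range (highest minus lowest log2 CPM) of the 4 groups for 34 of 39 genes, HG for 4, SHAM for 1 and PBS for 0. The median range of all features was also widest in HG+ORG, at 1.73, against 1.25 in HG, 0.98 in PBS and 1.25 in SHAM. Over all 23 horns the ratio of highest to lowest CPM was between 2.24 for Ifi35 and 26 for Mx1, with 16.9 for Oas3, 14.9 for Ifit3 and 13.6 for Oas2. By mean log2 CPM, HG was the lowest group for 29 genes and SHAM the highest for 25, with HG+ORG highest for 9 and PBS for 5. By median, SHAM was highest for 18 and HG+ORG for 13. These counts of widest, lowest and highest groups were not made over all features. They therefore do not show whether the 39 genes stand out.

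Of the signal transducers and transcription factors, Irf7, the regulator that amplifies interferon production, had the widest range over the 23 horns. Values are given for PBS horn by horn in order of replicate number, and for the groups of 6 as lowest, median and highest. Irf7 had 54.0, 164 and 336 CPM in HG+ORG, 45.4, 71.2 and 255 CPM in HG, 163, 88.8, 239.7, 82.2 and 325 CPM in PBS, and 97.2, 169.8 and 269 CPM in SHAM. Each group held horns below 100 CPM and horns above 240 CPM, and in HG the 2 high horns were replicates 12 and 15, with 232 and 255 CPM, and the other 4 were at or below 80.0 CPM. The comparison with the smallest p was HG vs SHAM (log2 fold -0.54, SE 0.50, edgeR adjusted p = 0.732), and the fold was -0.90 without HG replicate 15.

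Stat2, which acts with IRF9, had 35.0, 80.0 and 244 CPM in HG+ORG, 41.1, 115 and 122 CPM in HG, 60.6, 84.0, 68.4, 69.6 and 130.3 CPM in PBS, and 72.7, 79.1 and 211 CPM in SHAM. HG+ORG spanned the full range of the study for this gene, with the highest value in replicate 21 and the lowest in replicate 22, and the 4 groups overlapped. Its smallest p was in PBS vs SHAM (-0.43, SE 0.43, edgeR adjusted p = 0.9995). That fold was -0.16 without SHAM replicate 3. Irf1, which responds to both interferon types, had 43.3, 90.4 and 217 CPM in HG+ORG, 42.9, 75.5 and 176 CPM in HG, 77.4, 38.99, 88.9, 66.9 and 134 CPM in PBS, and 55.0, 84.1 and 185 CPM in SHAM. Its 3 highest horns lay in 3 groups: HG+ORG replicate 21, HG replicate 12 and SHAM replicate 3. The HG+ORG vs PBS fold of Irf1 was 0.41 (SE 0.43, edgeR adjusted p = 0.950), between 0.07 without HG+ORG replicate 21 and 0.66 without PBS replicate 11. Irf9, the DNA-binding subunit of the complex with STAT2, was steadier, at 51.1 to 149 CPM over all horns, both ends being HG+ORG horns.

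Isg15, the ubiquitin-like protein that is conjugated to other proteins, had 34.5, 64.9 and 114 CPM in HG+ORG, 24.6, 43.1 and 85.4 CPM in HG, 46.0, 34.1, 64.3, 34.1 and 81.7 CPM in PBS, and 46.6, 64.0 and 74.9 CPM in SHAM. The 2 highest horns were HG+ORG replicates 21 and 19, the lowest was HG replicate 14, and the groups overlapped. Its HG+ORG vs HG fold was 0.55 (SE 0.31, edgeR adjusted p = 0.617). Without HG+ORG replicate 21 that fold was 0.34. Usp18, the protease that removes ISG15 and dampens the receptor, had 10.3, 31.1 and 69.5 CPM in HG+ORG, 17.1, 23.5 and 32.1 CPM in HG, 22.3, 20.3, 22.3, 12.4 and 36.9 CPM in PBS, and 24.8, 28.9 and 56.9 CPM in SHAM. HG+ORG again held both ends, replicate 21 above and replicate 18 below every other horn. In PBS vs SHAM Usp18 had the smallest p of the 39 genes (log2 fold -0.57, SE 0.39, unadjusted p = 0.154, edgeR adjusted p = 0.9995). It was -0.37 without SHAM replicate 3 and -0.81 without PBS replicate 11. Herc6, an ISG15 ligase in mice, had 9.12 to 37.6 CPM over the 23 horns, and Trim25, a ubiquitin and ISG15 ligase, had 93.6 to 409.5 CPM.

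The IFIT proteins bind viral RNA. Ifit1 had 17.9, 73.8 and 132 CPM in HG+ORG, 26.7, 42.9 and 81.7 CPM in HG, 46.0, 48.3, 74.0, 31.7 and 95.4 CPM in PBS, and 56.0, 66.7 and 153 CPM in SHAM. SHAM replicate 3 lay well above the other SHAM horns, whose highest value was 76.6 CPM, and the lowest horn of all was HG+ORG replicate 18. The HG vs SHAM fold of Ifit1 was -0.66 (SE 0.44, edgeR adjusted p = 0.610), and -0.36 without SHAM replicate 3. Ifit3 ran between 3.48 CPM in HG+ORG replicate 22 and 54.1 CPM in HG+ORG replicate 21. Ifit3 has a near-identical copy, Ifit3b, and reads may be split between them. Ifit2 departed from the pattern: it was at 8.03 CPM in HG+ORG replicate 21 and 7.41 CPM in SHAM replicate 3, below the 17.4 CPM of HG+ORG replicate 22, a horn where Ifit1 and Ifit3 were low.

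The OAS enzymes make the 2′-5′ oligoadenylates that activate RNase L. Oas2 had 38.7, 181 and 529 CPM in HG+ORG, 80.2, 214 and 293 CPM in HG, 148, 177, 123, 117 and 257 CPM in PBS, and 138, 159.6 and 352 CPM in SHAM. The 2 highest horns and the lowest horn were all HG+ORG, replicates 21, 19 and 18. Its HG+ORG vs PBS fold was 0.60 (SE 0.51, edgeR adjusted p = 0.935), which became 0.23 without HG+ORG replicate 21 and 0.83 without HG+ORG replicate 18. Oas3 ran between 7.45 CPM in HG replicate 14 and 129 CPM in HG+ORG replicate 19, and had the lowest fold of the 39 genes in HG vs SHAM (-0.87, SE 0.52). Oasl2 had 75.1 to 451 CPM and Oas1a 21.3 to 94.2 CPM. Oas1a stands in a cluster of closely similar copies, so its reads may be shared.

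**Figure D3:**
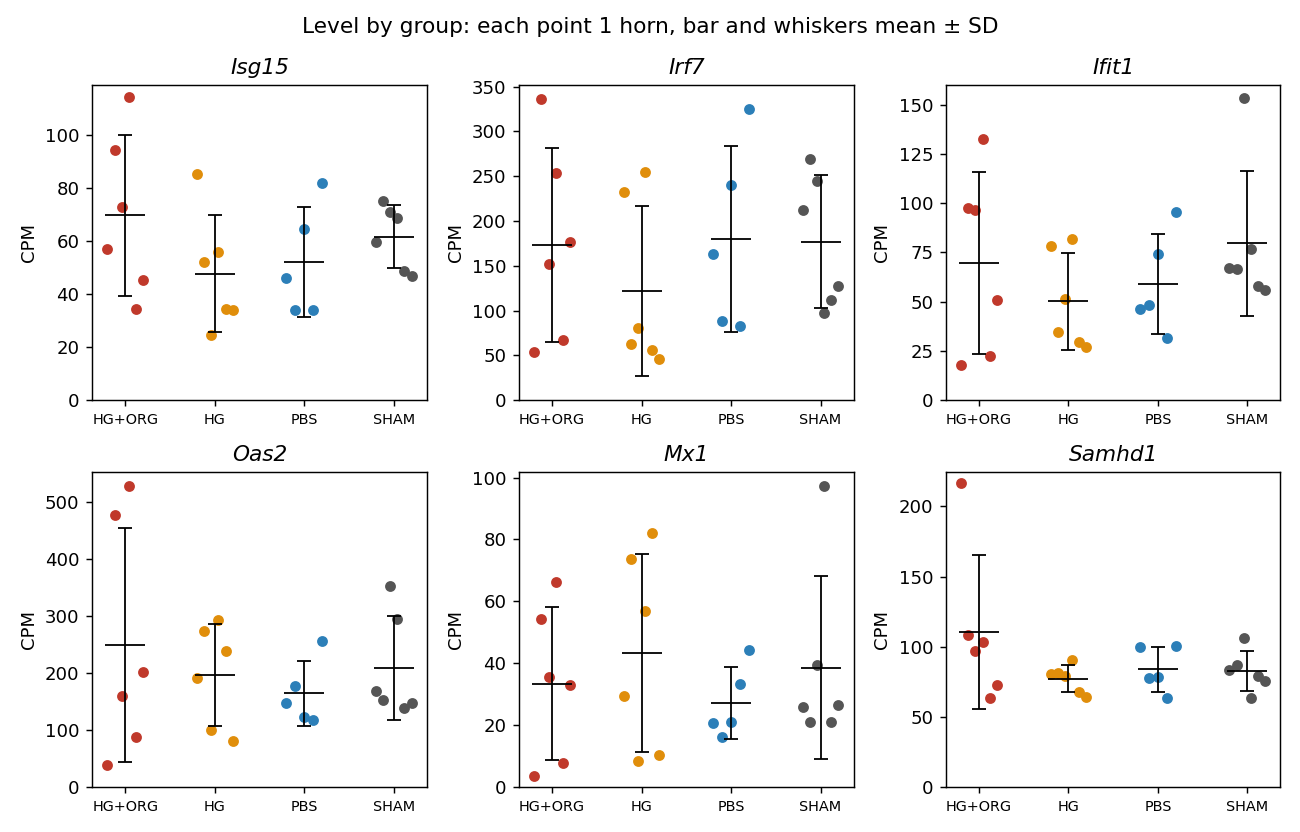
CPM of 6 genes by group, with 1 point a horn and the mean and SD as bar and whiskers, drawn HG+ORG, HG, PBS and SHAM left to right. The groups overlap for each gene, and the single high Samhd1 point at 217 CPM is HG+ORG replicate 18.

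Among nucleic acid sensors, Zbp1, the sensor of Z-form nucleic acids, had 20.3, 60.0 and 146 CPM in HG+ORG, 16.3, 36.1 and 77.1 CPM in HG, 47.5, 23.4, 66.5, 29.1 and 136 CPM in PBS, and 37.3, 70.4 and 149.6 CPM in SHAM. HG+ORG replicates 19 and 21, PBS replicate 11 and SHAM replicate 3 all lay above 130 CPM, and no HG horn passed 77.1 CPM. The HG+ORG vs HG fold of Zbp1 was 0.72 (SE 0.52, edgeR adjusted p = 0.763), and 0.41 without HG+ORG replicate 21. Ifih1, the MDA5 sensor of long double-stranded RNA, had 23.5, 33.4 and 51.4 CPM in HG+ORG, 22.1, 31.4 and 44.8 CPM in HG, 35.7, 40.3, 45.4, 32.1 and 54.7 CPM in PBS, and 37.1, 41.4 and 50.8 CPM in SHAM. Its lowest horns were HG replicate 17 and HG+ORG replicate 18, and the groups overlapped. The HG vs PBS fold of Ifih1 was -0.31 (SE 0.22, unadjusted p = 0.168, edgeR adjusted p = 0.991), and -0.19 without PBS replicate 11.

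Dhx58, the regulator LGP2 of those sensors, had 23.7, 47.5 and 82.7 CPM in HG+ORG, 18.5, 37.8 and 52.3 CPM in HG, 34.6, 33.8, 45.8, 28.2 and 71.2 CPM in PBS, and 37.6, 50.0 and 78.5 CPM in SHAM. Its HG+ORG horns lay on both sides of the SHAM range. The PBS vs SHAM fold of Dhx58 was -0.38 (SE 0.35, edgeR adjusted p = 0.9995), between -0.64 without PBS replicate 11 and -0.26 without PBS replicate 10. Eif2ak2, the kinase PKR that halts translation on double-stranded RNA, had 28.3, 67.4 and 109 CPM in HG+ORG, 39.1, 66.3 and 91.7 CPM in HG, 65.4, 89.3, 74.5, 55.4 and 97.4 CPM in PBS, and 76.4, 82.1 and 108 CPM in SHAM. The lowest horn was HG+ORG replicate 18 and the highest HG+ORG replicate 20. Its HG+ORG vs SHAM fold was -0.36 (SE 0.25, edgeR adjusted p = 0.683), and -0.22 without HG+ORG replicate 18.

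Several direct antiviral effectors had their extremes in other horns. Bst2, the tetherin that holds budding virions at the cell surface, had 145, 256 and 391 CPM in HG+ORG, 117, 235 and 362 CPM in HG, 272, 239, 315, 233 and 354 CPM in PBS, and 182, 254 and 361 CPM in SHAM. The HG vs PBS fold of Bst2 was -0.30 (SE 0.26, edgeR adjusted p = 0.991), -0.48 without HG replicate 12 and -0.16 without HG replicate 14. Its groups overlapped and its lowest horn was HG replicate 14. Rsad2, the antiviral enzyme viperin, and its neighbor Cmpk2, a nucleotide kinase, had 6.97 to 50.2 and 8.91 to 42.6 CPM. Both peaked in HG+ORG replicate 20, a horn that was highest for 4 of the 39 genes.

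Samhd1, the dNTP hydrolase that starves reverse transcription, had 63.7, 100.3 and 217 CPM in HG+ORG, 63.8, 79.9 and 90.6 CPM in HG, 99.4, 77.5, 78.2, 63.2 and 100.4 CPM in PBS, and 63.5, 81.2 and 106 CPM in SHAM. HG+ORG replicate 18, at 217 CPM, was the only horn above 108 CPM, and the rest of the HG+ORG horns lay within the range of the other groups or next to it. The fold of Samhd1 was 0.51 in HG+ORG vs HG (SE 0.22, 95% interval 0.05 to 0.97, unadjusted p = 0.0301, edgeR adjusted p = 0.434), 0.40 in HG+ORG vs PBS (SE 0.23, edgeR adjusted p = 0.887) and 0.42 in HG+ORG vs SHAM (SE 0.22, edgeR adjusted p = 0.554). Without HG+ORG replicate 18 those folds were 0.19, 0.09 and 0.10. The 14 macrophage and monocyte markers had a mean level of 8.72 log2 CPM in that horn and 1.59 to 5.94 elsewhere, and the part of those cells in the Samhd1 value was not tested.

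Mx1, a dynamin-like GTPase that is defective in C57BL/6 mice although its RNA is still made, had 3.59, 34.2 and 66.3 CPM in HG+ORG, 8.31, 43.1 and 82.0 CPM in HG, 20.5, 16.1, 20.8, 33.2 and 44.4 CPM in PBS, and 20.9, 26.3 and 97.2 CPM in SHAM. The highest horns were HG replicates 13 and 16 and SHAM replicate 4, in which 9, 7 and 26 of the 39 genes were above their means, and the lowest was HG+ORG replicate 18. By arithmetic mean CPM, HG was the group with the most Mx1, 43.4 ± 32.0 CPM (SD, n = 6), against 27.0 ± 11.6 CPM in PBS (n = 5), but the HG vs PBS fold of 0.68 had an SE of 0.65, and by mean log2 CPM HG, at 4.96, was below SHAM, at 5.03. Mx2 was likewise above its mean in those 3 horns, at 17.6 CPM in HG replicate 13, 20.0 CPM in HG replicate 16 and 27.4 CPM in SHAM replicate 4, with 2.48 CPM in HG+ORG replicate 18.

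In HG replicates 13 and 16 and in SHAM replicate 4 the 39 genes thus split. Mx1, Mx2, Oas2, Stat2, Rtp4 and Eif2ak2 were above their own means in all 3 horns, while 12 genes, Ifit3, Gbp2, Gbp3, Rsad2 and Irf7 among them, were below theirs in all 3. For Mx1 the deviations were 1.419 and 1.57 log2 units in the HG horns and 1.82 in the SHAM horn, and for Gbp2 they were -0.91 and -0.82 in the HG horns and -1.35 in the SHAM horn. Sting1, the adaptor of cytosolic DNA sensing and not one of the 39, was at 381.5 and 392.2 CPM in those HG horns and 533.6 CPM in that SHAM horn. It was at 391.2 CPM in HG+ORG replicate 21 and 585.3 CPM in SHAM replicate 3, and at most 280.0 CPM in the remaining 18 horns. These horns and genes were picked after their values were seen. HG replicates 13 and 16 also had the most similar counts of any HG pair (chi-square per degree of freedom 20, median over pairs 114). If they share a mouse, they do not show the split independently.

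Parp9 and Dtx3l, whose products pair to modify histones and support interferon-driven transcription, are given with Parp12 and Parp14, which like Parp9 are PARP family members. Dtx3l had 31.7, 92.6 and 142 CPM in HG+ORG, 44.3, 72.0 and 126 CPM in HG, 92.5, 89.6, 127, 78.8 and 164 CPM in PBS, and 94.1, 108 and 168 CPM in SHAM. The lowest horn was HG+ORG replicate 18, followed by HG replicate 17. In HG vs SHAM the fold of Dtx3l was -0.60 (SE 0.30, unadjusted p = 0.0610, edgeR adjusted p = 0.469), and in HG vs PBS it was -0.50 (SE 0.31, edgeR adjusted p = 0.991), or -0.31 without PBS replicate 11. All 4 members of the group had fitted folds below 0 against SHAM in HG+ORG, HG and PBS, at medians of -0.23, -0.53 and -0.16, and these 3 comparisons share the SHAM horns.

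The guanylate-binding proteins, GTPases that attack pathogen vacuoles, gave Gbp2 16.5, 55.1 and 89.5 CPM in HG+ORG, 21.2, 25 and 93.7 CPM in HG, 52.5, 32.1, 68.5, 28.1 and 104 CPM in PBS, and 17.3, 52.7 and 82.1 CPM in SHAM. PBS replicate 11 was the highest horn and HG+ORG replicate 22 the lowest, and the groups overlapped. The HG vs PBS fold of Gbp2 was -0.44 (SE 0.49, edgeR adjusted p = 0.991), moving between -0.85 without HG replicate 12 and -0.11 without PBS replicate 11. Gbp3 had 21.8 to 104 CPM and was again high in PBS replicate 11, at 103 CPM. Gbp genes are similar in sequence and may share reads.

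Of the remaining genes, Lgals3bp, a secreted glycoprotein that binds galectin-3, had 310.1, 698 and 895 CPM in HG+ORG, 251, 367 and 966 CPM in HG, 530.3, 496, 1058, 355 and 999.7 CPM in PBS, and 591, 751 and 1051 CPM in SHAM. In HG vs SHAM it had the smallest p of the 39 (log2 fold -0.72, SE 0.35, 95% interval -1.46 to 0.02, unadjusted p = 0.0546, edgeR adjusted p = 0.454). SHAM horns all had at least 591 CPM and 4 of the 6 HG horns lay below 390 CPM, with HG replicates 12 and 15 within the SHAM range. Trim30a, a restrainer of inflammatory signaling, had 31.0, 73.0 and 90.7 CPM in HG+ORG, 28.2, 42.3 and 62.9 CPM in HG, 47.2, 48.1, 44.8, 28.6 and 69.3 CPM in PBS, and 37.4, 46.7 and 84.1 CPM in SHAM. Its highest horns were HG+ORG replicates 19, 21 and 18 and SHAM replicate 3. Trim30a had folds of 0.53 in HG+ORG vs HG (SE 0.28, edgeR adjusted p = 0.577) and 0.46 in HG+ORG vs PBS (SE 0.29, edgeR adjusted p = 0.902), or 0.44 and 0.38 without HG+ORG replicate 18.

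Ifi27, a mitochondrial protein linked to cell death, had 57.7, 127 and 237 CPM in HG+ORG, 66.5, 79.8 and 249 CPM in HG, 98.2, 86.3, 93.1, 71.2 and 125 CPM in PBS, and 52.1, 105 and 116 CPM in SHAM. HG replicate 12 and HG+ORG replicate 18 were the only horns above 152 CPM. Its HG+ORG vs PBS fold was 0.48 (SE 0.34, edgeR adjusted p = 0.922), and 0.22 without HG+ORG replicate 18. Xaf1, which opposes the apoptosis inhibitor XIAP, peaked in HG replicate 14 at 91.5 CPM and PBS replicate 8 at 115 CPM, both horns in which most other members were below their means. Ifi44, Rtp4, Sp100 and Ifi35 were above their means in HG+ORG replicates 19 and 21, PBS replicate 11 and SHAM replicate 3 and below them in HG+ORG replicate 22 and HG replicate 17, with Ifi44 running between 12.1 CPM in HG+ORG replicate 18 and 158 CPM in PBS replicate 11.

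No comparison between groups called any of the 39 genes. In HG+ORG vs HG, the contrast of organoids in hydrogel with hydrogel alone, edgeR called 0 of 39 genes and 0% of the 17708 features at an adjusted p of 0.05, and 1 gene (Samhd1) and 1737 features (9.81%) had an unadjusted p under 0.05. DESeq2 called 0 of 39, against 0.915% of features. The values of both groups overlapped for all 39, while 0.181% of features had groups that did not overlap. Fitted folds were above 0 for 37 of 39, the exceptions being Mx1 (-0.38, SE 0.62) and Mx2 (-0.06, SE 0.45), with a median of 0.35, against 55.7% and a median of 0.04 over all features. Leaving out each horn in turn gave 31 to 38 genes above 0 and medians of 0.19 to 0.52. The epithelial list had 10 of 12 folds above 0 (median 0.25), the macrophage list 13 of 14 (median 1.86) and the neutrophil list 4 of 6 (median 4.15) in the same comparison. The smooth muscle list had 0 of 11 (median -2.91) and the adipocyte list 1 of 8 (median -6.02). Endothelial markers had 1 of 10 (median -1.79) and endometrial stroma markers 4 of 11 (median -0.41). Without HG+ORG replicate 18 the epithelial list had 11 of 12 (median 0.465). The other medians were then 0.29 for macrophages, 1.69 for neutrophils, -3.55 for smooth muscle and -6.10 for adipocytes. They were -3.50 for endothelium and -2.17 for stroma. Without HG replicate 12 the adipocyte list had 3 of 8 folds above 0 (median -3.34). The part of these cell types in the result was not tested.

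In HG+ORG vs PBS, edgeR called 0 of 39 genes and 0% of features, with 0 genes and 1079 features (6.09%) at an unadjusted p under 0.05, and DESeq2 called 0 of 39, against 0% of features. None of the 39 had groups that did not overlap, against 0.107% of features. Folds were above 0 for 29 of 39, with a median of 0.23, against 55.3% and 0.05 over all features. Without HG+ORG replicate 21 the count was 20 and the median 0, and without PBS replicate 11 the median was 0.42. In HG+ORG vs SHAM, edgeR called 0 of 39 and 0% of features, with 0 genes and 1754 features (9.91%) at an unadjusted p under 0.05. DESeq2 called 0 of 39, against 0.469% of features, and 0 of 39 had groups that did not overlap, against 0.164%. Here 18 of 39 folds were above 0 (median -0.05), against 56.3% of features (median 0.06). The count was 7 without HG+ORG replicate 21, 10 without HG+ORG replicate 19 and 26 without SHAM replicate 3, and limma gave 11.

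Against SHAM, the HG horns had the lowest set of folds. In HG vs SHAM 4 of 39 folds were above 0, those of Mx1, Ifi35, Xaf1 and Ifi27, and the median was -0.37, against 50.2% of features and a median of 0.002. edgeR called 0 of 39 and 0% of features, with 0 genes and 1996 features (11.3%) at an unadjusted p under 0.05. DESeq2 called 0 of 39, against 1.59% of features, with 3 genes at an unadjusted p under 0.05, and groups failed to overlap for 0 of 39, against 1.43% of features. Without SHAM replicate 3 the count above 0 was 12 and the median -0.28, without HG replicate 17 the count was 8, without HG replicate 12 it was 2, and on total counts alone it was 7. Without HG replicate 15, 10 of the 39 had an unadjusted p under 0.05 in edgeR and none an adjusted p under 0.05. The share of all features at that unadjusted level was computed only in the edgeR fit of all horns. The counts of 3 and 10 genes therefore do not show whether the 39 genes stand out. The epithelial markers also had folds below 0 in all 12 members (median -0.55), and those of smooth muscle above 0 in 11 of 11 (median 3.73). The mitochondrially encoded genes, whose share can vary with RNA quality, had folds above 0 in 13 of 13 (median 0.79), and the part of these lists was not tested.

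In HG vs PBS 9 of 39 folds were above 0 (median -0.20), against 53.0% of features (median 0.02). That rested on PBS replicate 11, without which the count was 22 and the median 0.03, and the count was 5 without HG replicate 12. edgeR called 0 of 39 and 0% of features, with 0 genes and 597 features (3.37%) at an unadjusted p under 0.05, DESeq2 called 0 of 39, against 0% of features, and 0 of 39 had groups that did not overlap, against 0.152%. In PBS vs SHAM, saline after injury against SHAM, 7 of 39 folds were above 0 (median -0.20), against 53.6% (median 0.02). Without SHAM replicate 3 the count was 20 and the median 0.004, without PBS replicate 10 the count was 13, without SHAM replicate 4 or 6 it was 4, and without PBS replicate 11 it was 2. edgeR called 0 of 39 and 0% of features, with 0 genes and 385 features (2.17%) at an unadjusted p under 0.05. DESeq2 called 0 of 39, against 0.00565% of features, and 0 of 39 had groups that did not overlap, against 0.294%. In the 4 comparisons other than HG+ORG vs HG and HG vs SHAM, marker lists differed as follows, and their part was not tested. The epithelial list had 6 of 12 folds above 0 in HG+ORG vs PBS (median 0.006), 1 of 12 in HG+ORG vs SHAM (median -0.37), 3 of 12 in HG vs PBS (median -0.20) and 0 of 12 in PBS vs SHAM (median -0.32). The smooth muscle list had 0 of 11 in HG+ORG vs PBS (median -1.79), 10 of 11 in HG+ORG vs SHAM (median 0.87), and 11 of 11 both in HG vs PBS (median 1.29) and in PBS vs SHAM (median 2.66). Of the 13 mitochondrially encoded genes, 9 had folds above 0 in HG+ORG vs PBS (median 0.15), 12 in HG+ORG vs SHAM (median 0.52), 12 in HG vs PBS (median 0.23) and 13 in PBS vs SHAM (median 0.48). The comparisons share control horns, so their folds are not independent of each other.

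**Figure D4:**
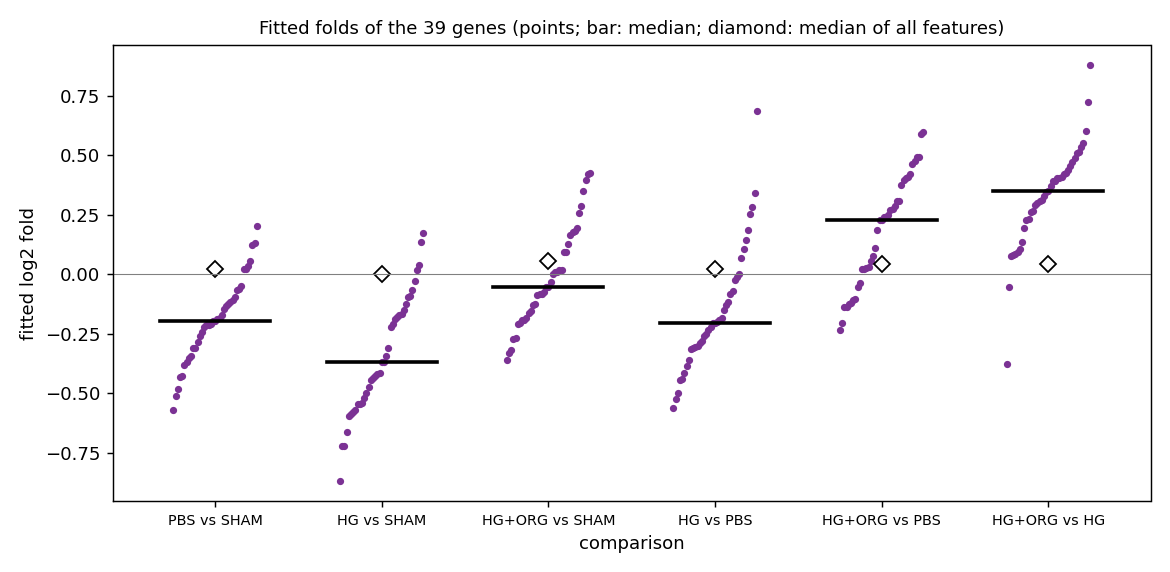
Fitted log2 folds of the 39 genes in each of the 6 comparisons (points), their median (bar) and the median of all features (diamond). Medians lie at -0.37 in HG vs SHAM and 0.35 in HG+ORG vs HG, and no single gene passed the threshold in any comparison.

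Upstream of these genes, Ifne, which encodes interferon epsilon, was the 1 gene analysed here of 10 interferon genes listed. It had 0.99, 6.29 and 50.4 CPM in HG+ORG, 2.37, 9.56 and 22.2 CPM in HG, 5.16, 4.98, 11.0, 9.01 and 14.3 CPM in PBS, and 4.80, 10.5 and 64.3 CPM in SHAM. HG+ORG replicate 21 and SHAM replicate 3 had the highest median deviation of the 39 genes with TMM factors. They were also the 2 highest for Ifne and for the epithelial list, and HG+ORG replicate 18 was the lowest for both. On total counts alone their median deviations, 0.48 and 0.44, were below those of HG+ORG replicate 19 (0.655), PBS replicate 11 (0.58) and HG replicate 15 (0.50). HG+ORG replicate 19 and PBS replicate 11, where all 39 genes were above their means, had 12.0 and 14.3 CPM of Ifne. The smallest p of Ifne was in PBS vs SHAM (log2 fold -1.07, SE 0.79, unadjusted p = 0.188, edgeR adjusted p = 0.9995), and the fold was -0.12 without SHAM replicate 3.

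Among the receptor genes Ifnar1, Ifnar2, Ifngr1, Ifngr2, Ifnlr1 and Il10rb and the kinase genes Jak1, Jak2 and Tyk2, edgeR called none, and Ifngr2 was the one gene at an unadjusted p under 0.05 (HG vs SHAM, log2 fold -0.82, and HG+ORG vs HG, 0.80). Of 39 further type I interferon-stimulated genes tested out of 40 listed, 24 of 39 had folds above 0 in HG+ORG vs SHAM (median 0.11), against 56.3% of features, and 8 had an unadjusted p under 0.05, against 9.91% of features, all with folds above 0: Ifi203, Ifi204, Ifi207, Ifi209, Slfn1, Slfn2, Parp11 and Ms4a4c. Without HG+ORG replicate 18, 1 of the 39 had an unadjusted p under 0.05, and the share of features in that fit was not computed. In the same comparison the macrophage list had 14 of 14 folds above 0 (median 2.79, 11 at an unadjusted p under 0.05), and without that horn 13 of 14 (median 1.03, 4 at an unadjusted p under 0.05). In HG+ORG vs HG 34 of 39 were above 0 (median 0.34), and in HG vs SHAM 10 were (median -0.26). None was called.

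Targets of interferon gamma are given beside these, with no test of the difference between the lists. Of 17 tested, 13 had folds above 0 in HG vs SHAM (median 0.57), against 4 of the 39 interferon-stimulated genes, and 6 had folds above 0 in HG+ORG vs HG (median -0.09), against 37 of the 39. Without HG replicate 12 the 17 had 11 folds above 0 in HG vs SHAM (median 0.24) and 10 in HG+ORG vs HG (median 0.02). The 10 T and NK cell markers tested had folds above 0 in 10 of 10 in HG vs SHAM (median 1.70, 7 at an unadjusted p under 0.05). In HG+ORG vs HG 4 of 10 were above 0 (median -1.06, 4 lower at an unadjusted p under 0.05), and their part in the values of these 17 genes was not tested. The chemokine gene Cxcl10 had 1.85, 4.10 and 13.4 CPM in HG+ORG, 3.46, 5.68 and 63.3 CPM in HG, 3.52, 0.40, 1.37, 0.86 and 5.42 CPM in PBS, and 1.60, 4.53 and 9.05 CPM in SHAM. HG replicate 12 was far above every other horn, and the HG vs PBS fold was 2.73 (SE 0.82, unadjusted p = 0.00326, edgeR adjusted p = 0.991). It was 1.33 without HG replicate 12.

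The 12 epithelial markers were at 10.19 log2 CPM in HG+ORG replicate 21 and 10.26 in SHAM replicate 3, the 2 highest, and at 6.27 in HG+ORG replicate 18 and 7.95 in HG replicate 14, the 2 lowest. HG+ORG replicate 22 had 8.82 and HG replicate 17 had 8.56. HG+ORG replicate 19, with 9.45, and PBS replicate 11, with 9.28, lay within the range of the SHAM horns, 8.92 to 10.26. The mean log2 CPM of the 39 genes was 6.72 in HG+ORG replicate 19, 6.62 in PBS replicate 11 and 5.84 to 6.67 in the SHAM horns. By group the summed CPM of the epithelial list ran between 1069 and 16270 in HG+ORG, 4321 and 10290 in HG, 5849 and 9715 in PBS, and 7005 and 17620 in SHAM. The part of epithelial content in the level of the 39 genes was not tested.

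**Figure D5:**
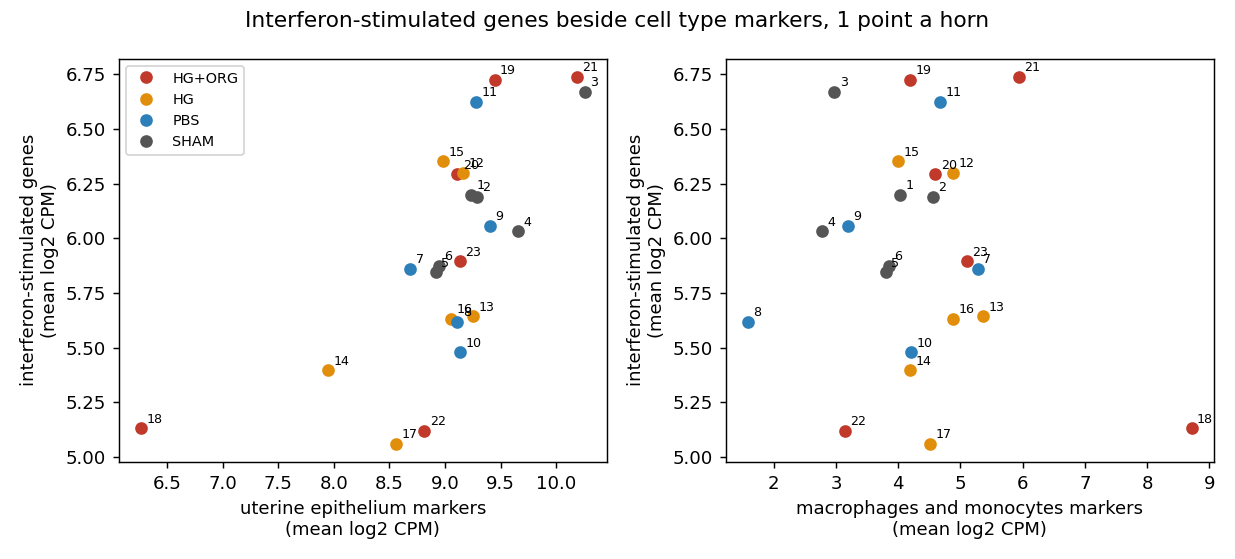
Mean log2 CPM of the 39 genes (vertical) against that of 12 epithelial markers (left) and 14 macrophage and monocyte markers (right), with 1 numbered point a horn. HG+ORG replicate 18 lies apart in both panels, at 6.27 for epithelium and 8.72 for macrophages.

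In the 4 horns with the highest level of the 39 genes, the macrophage list was at 4.18 log2 CPM in HG+ORG replicate 19, 5.94 in HG+ORG replicate 21, 4.67 in PBS replicate 11 and 2.97 in SHAM replicate 3. HG+ORG replicate 21 was the highest horn for that list apart from HG+ORG replicate 18, and in the 18 horns other than these 5 the list was at 1.59 to 5.37. By group, the summed CPM of that list ran between 275.3 and 22930 in HG+ORG, 426.8 and 1179 in HG, 195.4 and 935.2 in PBS, and 257.9 and 1111 in SHAM. Siglech, a defining marker of plasmacytoid dendritic cells, the classic makers of type I interferon in blood, was at 0 to 3.90 CPM outside HG+ORG replicate 18, where it was at 9.65 CPM. It was at 0.77 CPM in HG+ORG replicate 21, 1.04 CPM in HG+ORG replicate 19, 1.83 CPM in PBS replicate 11 and 0 in SHAM replicate 3. The 6 plasmacytoid dendritic cell markers tested had a mean level of 4.28 log2 CPM in HG+ORG replicate 18 and -0.20 to 2.21 elsewhere. Their summed CPM was 422.4 in that horn and 234.1 in HG replicate 14. In HG+ORG vs SHAM 6 of 6 had folds above 0 (median 0.97), and 3 of 6 without HG+ORG replicate 18 (median 0.04).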

How the data were processed

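RNA was measured in 23 uterine horns, grouped by sample title. The authors deposited raw counts per gene. Per the submitters' processing notes, reads were handled on build GRCm39 with featureCounts 2.0.3, HISAT2 2.2.1, Trimmomatic 0.39, SAMtools 1.21 and FastQC 0.11.9. Neither strand setting nor annotation release is known from the sources used here, so overlapping genes and near-identical copies may share reads, and reads of human organoid cells that align to mouse cannot be told apart.

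edgeR 4.0.16 in R 4.3.3 fitted all 4 groups in 1 quasi-likelihood model with TMM factors after filterByExpr by group, which kept 17708 of 18682 features. The 6 contrasts were adjusted by Benjamini-Hochberg over all features at 0.05. Standard errors were derived from each fold and its F statistic. Fitted folds rest on mean counts and need not equal the difference of mean log2 CPM (prior count 2). The p-values measure the spread between horns, and the labels do not say which horns share a mouse. DESeq2 1.42.0, limma 3.58.1, other scalings, no filter, 2-group fits, SHAM replicates 5 and 6 summed, and leaving out each horn were alternatives. Scaling by total counts, and leaving out horns for Ifne, Cxcl10 and the other lists, were added after seeing the data. The fitting steps were tested on simulated data.

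Values are given in full for Isg15, Ifit1, Irf7, Stat2, Usp18, Oas2, Zbp1, Bst2, Ifi27, Irf1 and Gbp2, each with its fold in the comparison where its p was smallest, and for the 2 genes with the smallest p in each comparison. Ifne and Cxcl10 are always given, Ifng is not analysed here, and 1 other gene of that rule is not reported here. Any other gene with values of its own was chosen after its values were seen. The 39 genes, the other lists and the tests were chosen with earlier results of these data known.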

Additional observations from a re-analysis of the deposited data

Results flagged for a closer look

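Among 76 sets of horns examined, each 1 quantity in 1 group, 4 had an extreme horn whose gap to its nearest neighbor, divided by the range of the group, was above Dixon's critical value at 95%. Chance flags about 1 in 20 such sets. Stat2 was at 5.37 log2 CPM in HG replicate 17, with the next HG horn at 6.47. Ifi27 was at 7.96 log2 CPM in HG replicate 12, with the next HG horn at 6.56. It was at 5.71 log2 CPM in SHAM replicate 4, with the next SHAM horn at 6.58. Ifit1 was at 7.26 log2 CPM in SHAM replicate 3, with the next SHAM horn at 6.26.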

How the results depend on the processing

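None of the 39 genes was called in any of 186 fits, those of the 6 comparisons as reported and under 30 alternatives. Counts over all genes moved: DESeq2 called 162 in HG+ORG vs HG, 83 in HG+ORG vs SHAM, 281 in HG vs SHAM and 1 in PBS vs SHAM, where edgeR called 0 in each. edgeR on only the 2 groups compared called 386 in HG vs SHAM, and leaving out 1 horn at a time gave 0 to 1 calls in HG+ORG vs HG. The cause was not tested. Leaving out 1 horn moved the number of the 39 folds above 0 between 7 and 26 in HG+ORG vs SHAM, between 5 and 22 in HG vs PBS and between 2 and 20 in PBS vs SHAM. With SHAM replicates 5 and 6 summed, 4 folds were above 0 in PBS vs SHAM. In HG vs SHAM the number of the 39 at an unadjusted p under 0.05 stayed at 0 in 16 of 30 alternatives and reached 10. In HG+ORG vs HG it stayed at 1 in 19 of 30, between 0 and 4. The share of all features at that level was not computed in those alternatives. No paired analysis was possible because the labels do not tie horns to mice, so horns of the same mouse in different groups could not be matched. Standard errors of single genes were between 0.18 and 0.65 log2 units, which limits what these horns can show for 1 gene.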
